A study of Homo sapiens with 27 samples.

Results

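Cytosolic ribosomal proteins are the protein components of the large (60S) and small (40S) subunits of the ribosome that translates nuclear mRNAs. Their genes were taken from the probe table of the array: every symbol that begins RPL or RPS and goes on with a digit, plus RPLP0, RPLP1, RPLP2 and RPSA, without the RPS6K kinases and without symbols that end in P and digits. This gave 34 of the 15207 named genes, with 49 probes, and each gene was represented by the probe with the highest mean signal over all arrays. They comprise 19 core proteins of the large subunit, 7 core proteins of the small subunit, 7 paralogue forms (RPL3L, RPL7L1, RPL10L, RPL22L1, RPL39L, RPS4Y2 and RPS27L) and RPS26L1, an older symbol that RefSeq now lists as the retrocopy RPS26P11. RPLP0, RPLP1, RPLP2, RPSA, RPL3, RPL5, RPL7, RPL11, RPL23, RPL39, RPS3, RPS6, RPS19, RPS26, RPS27 and RPS27A, among others, had no named probe and were not analysed here, so the set is a sample of the ribosome and not all of it.

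The cells were U937, a human line from a histiocytic lymphoma that grows as monocyte-like cells in suspension, and the labels also call them macrophages without naming a differentiating agent. The groups compared, each after 48 h, were untreated cells, cells given 4 µg/ml LPS, and cells given 10 µM PBD150 for 2 h and then 4 µg/ml LPS. LPS is the cell wall lipopolysaccharide that activates TLR4, and PBD150 is an inhibitor of glutaminyl cyclase, the enzyme that forms pyroglutamate at the start of proteins such as the chemokine CCL2. Each group had 3 cultures with 3 arrays each, 27 one-colour arrays in all, and there was no group given PBD150 alone. The series asks how glutaminyl cyclase activity affects expression in inflamed macrophages.

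Human ribosomal protein mRNAs are among the most abundant of a growing cell, and most of them start with a cytosine followed by a run of pyrimidines, the 5′ terminal oligopyrimidine (TOP) tract. Through this tract their translation follows the growth kinase mTOR, with LARP1 bound to the tract when mTOR is inactive. MYC is known to raise the transcription of these genes. Some ribosomal proteins also work outside the ribosome: RPL13A is released in interferon-treated monocytic cells and joins the GAIT complex, which silences inflammatory mRNAs.

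The starts of 26 of the 34 genes were listed in RefSeq's promoters of GRCh38.p14, with 33 start sites in all. A TOP start was searched as C at the annotated start followed by 4 or more C or T, on the gene's own strand. A gene counted if any of its listed starts had it. It was present at 19 of the 26 genes (73.1%), against 5.14% of the 27305 genes in the table. Among them were 18 of 21 core members (85.7%) and 1 of 5 paralogue forms. By start site it was at 19 of 33 (57.6%), against 4.07% of the table's 35116 promoters. The lines below show 7 genes that the results turn on, chosen for what they did with LPS. Each has the 50 bases before the annotated start and the 10 bases from it, and capitals mark the unbroken run of C and T around the start. RPL29 (chr3:51995886-51995945, minus strand), RPS14 (chr5:150449730-150449789, minus strand), RPL13A (chr19:49487558-49487617, plus strand) and RPL22 (chr1:6199586-6199645, minus strand) fell, and all have a TOP start. RPL22L1 (chr3:170870186-170870245, minus strand) has one as well and did not fall. RPL7L1 (chr6:42879566-42879625, plus strand) fell, RPS27L (chr15:63157468-63157527, minus strand) did not, and neither has a C at its start followed by such a run.
RPL29: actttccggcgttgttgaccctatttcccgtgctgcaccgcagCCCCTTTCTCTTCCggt
RPS14: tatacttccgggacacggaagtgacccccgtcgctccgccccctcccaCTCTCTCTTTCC
RPL13A: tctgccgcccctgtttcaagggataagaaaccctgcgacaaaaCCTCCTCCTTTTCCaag
RPL22: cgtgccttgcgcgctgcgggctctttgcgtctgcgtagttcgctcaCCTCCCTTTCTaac
RPL22L1: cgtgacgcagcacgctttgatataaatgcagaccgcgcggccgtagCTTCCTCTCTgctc
RPL7L1: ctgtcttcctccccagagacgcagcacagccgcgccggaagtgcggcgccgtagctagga
RPS27L: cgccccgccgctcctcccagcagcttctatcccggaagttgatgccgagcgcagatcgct

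The median intensity of an array was 41.5 to 100.3. Untreated replicate 1 had the 3 lowest of these medians, 41.5 to 46.8, and the next array was at 64.7, a difference that quantile normalisation removes. A noise limit was set for each array at 3 times the root mean square of its negative values, and 69.0% to 77.8% of probes exceeded it. LPS replicate 1 had the smallest median fall of the treated cultures in the core genes described here, and counts without it are given below. All levels below are log2 intensities after quantile normalisation, averaged over the 3 arrays of a culture, so that a difference of -1 is a halving. A probe's level says nothing of its gene's amount relative to another gene. The arrays were loaded with labelled RNA from equal amounts of total RNA, so fewer cells that express a gene and less of its RNA per cell cannot be told apart. Of 12 monocytic markers 11 were measured, and 10 were above the noise limit on every array. The intensities of the 11 summed to 74130 to 74300 in untreated cultures. Their sum was 115400 to 117900 after LPS alone and 115200 to 117500 after PBD150 and LPS. Most of these sums came from ELANE and CD14. ELANE stood within 1% of the array maximum on 8 of 9 untreated arrays, and CD14 on all 9 LPS arrays. With LPS 5 of the 11 rose, among them CD14 (6.92), CSF1R (4.57) and ITGAM (4.35), and ELANE fell (-0.85). The differences of CD14 and ELANE rest on bounds. Markers of other cells were not all at 0: 3 of 4 T cell markers and all 3 measured B cell markers were above the limit on every array, with sums of 2138 to 4952 and 513.7 to 1139 over all cultures. The B cell sum was 1071 to 1139 in untreated cultures and 547.3 to 773.8 after LPS alone, with CD79A lower (-1.40) and MS4A1 higher (1.14, adjusted p = 0.0185). Of the 2 epithelial markers measured EPCAM rose by 2.36 with LPS, from a summed list level of 24.9 to 51.6 untreated to 123.4 to 170 after LPS, and of 4 fibroblast markers DCN rose by 1.69, with sums of 387.8 to 443.3 and 452.2 to 718.9. Of the erythroid list 1 of 4 was measured, and its difference did not pass. The part of such markers in the results below was not tested. Of the 34 members 29 were above the noise limit on all 27 arrays. RPL28 was above it on 1 untreated array only and RPS4Y2 on 1 array of each treated group, so neither has a usable level.

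With LPS 18 of the 34 genes fell and 0 rose in the limma fit at an adjusted p under 0.05, where 15.4% of all 15207 genes fell and 13.6% rose. The median difference of the 34 was -0.89, against 0.05 for all genes. All 26 core members had a difference below 0, 16 of them past the threshold, and the core median was -0.94. RPL28 is counted among the 26, but at the noise limit its sign carries no information. The 19 core genes of the large subunit had a median of -1.01 with 11 past the threshold, and the 7 of the small subunit -0.83 with 5. RPL13A, RPL14, RPL35, RPS15A, RPS16 and RPS24 lost their call when at least 1 culture was left out, and 12 members fell without untreated replicate 2. In 23 of the 34 genes, 21 of them core, all 3 LPS cultures lay below all 3 untreated cultures, as they did in 24.7% of all genes. The replicates are called biological in the labels, and p-values cover the spread between these cultures only.

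**Figure D1:**
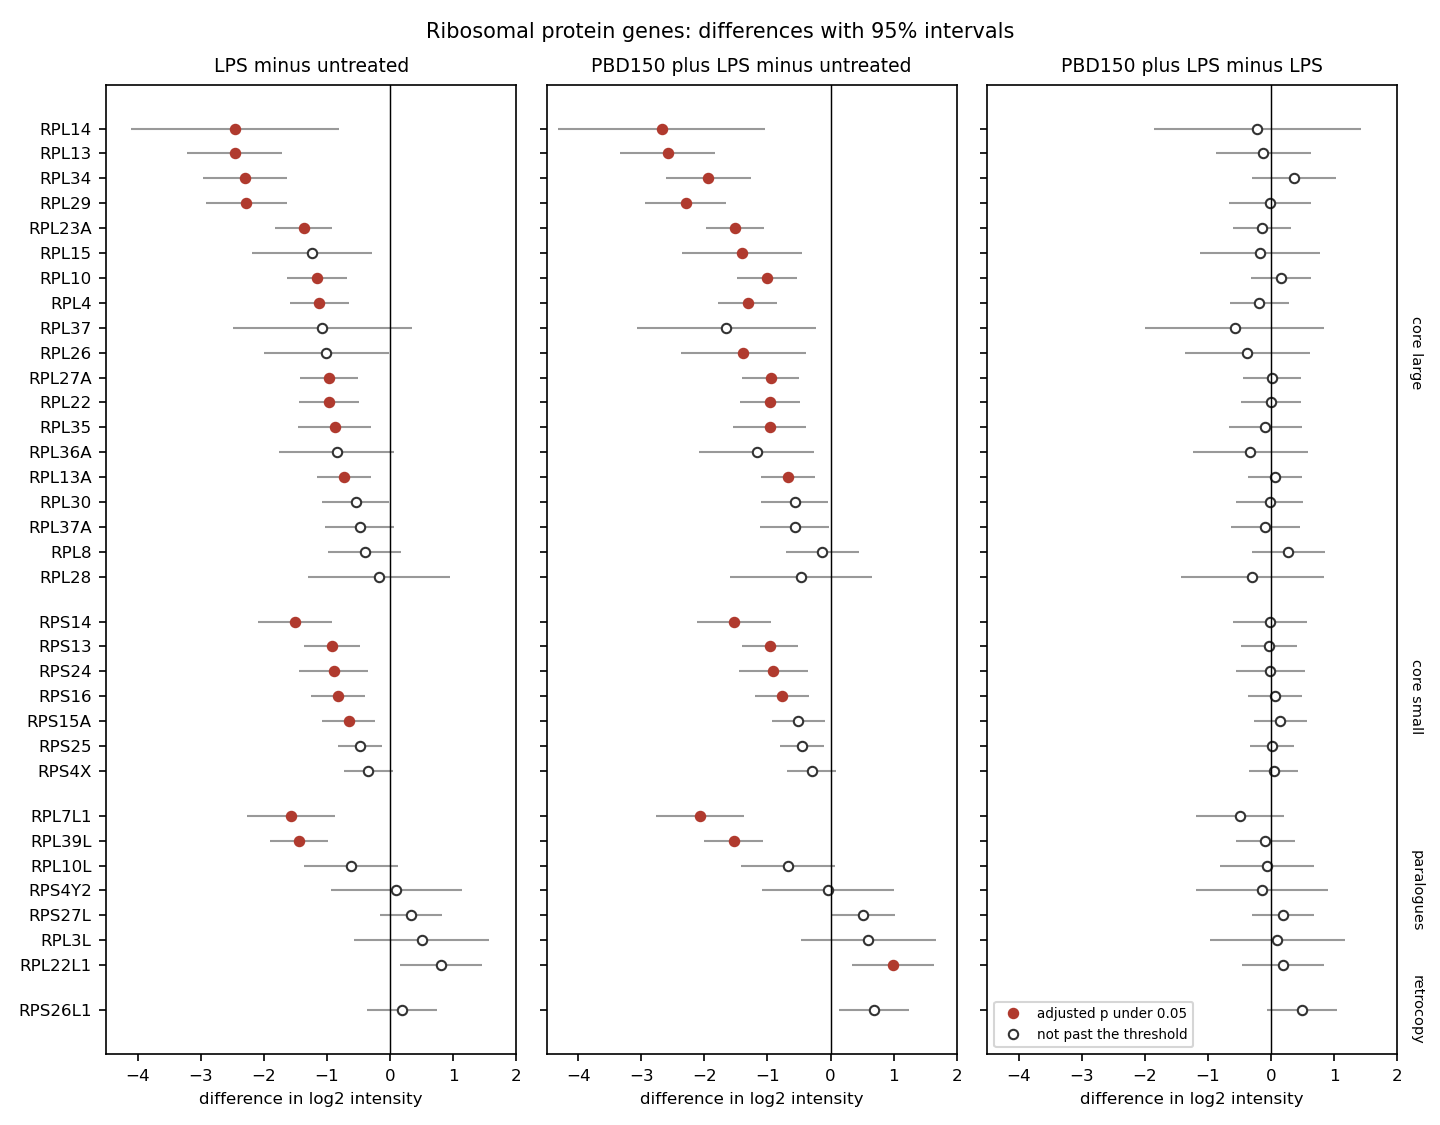
Difference in log2 intensity of each ribosomal protein gene, with its 95% interval, for LPS against untreated, PBD150 plus LPS against untreated, and PBD150 plus LPS against LPS. Filled points are past an adjusted p of 0.05: 18 in the left panel, 20 in the middle (RPL22L1 to the right of 0) and 0 in the right, where the differences lie between -0.58 and 0.49.

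The largest falls were in the large subunit. RPL13 was at 12.47, 12.52 and 12.42 in untreated cultures, at 10.77, 9.63 and 9.63 with LPS, and at 9.56, 9.87 and 10.24 with PBD150 plus LPS. Every treated culture was below every untreated one by more than the spread within either group, and the LPS difference was -2.46 ± 0.33 (SE, adjusted p = 0.00107), a 5.50-fold lower signal. A second, dimmer RPL13 probe did not show it, at 6.64, 6.0 and 5.56 untreated against 6.41, 5.69 and 5.48 with LPS, a difference of -0.20 (adjusted p = 0.709). RPL13 therefore rests on 1 of its probes.

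RPL29, a small heparin-binding protein of the large subunit, had levels of 10.04, 10.11 and 10.11 untreated, 7.23, 8.13 and 8.05 with LPS, and 8.07, 7.40 and 7.88 with PBD150 plus LPS. The groups with and without LPS were far apart, and the LPS difference was -2.28 ± 0.28 (adjusted p = 0.000732). RPL34 was at 8.03, 7.88 and 7.61 untreated, 6.18, 5.29 and 5.15 with LPS, and 5.67, 6.10 and 5.93 with PBD150 plus LPS. It fell by 2.30 ± 0.29 (adjusted p = 0.000841), with no overlap between untreated and treated cultures. RPL14 had levels of 6.24, 6.23 and 6.64 untreated and 5.75, 3.51 and 2.47 with LPS. Its difference of -2.46 ± 0.72 (adjusted p = 0.0405) was less certain, since it was above the noise limit on 4 of 9 LPS arrays and the call was lost when any one of 8 of the 9 cultures was left out.

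RPL23A, at the exit of the tunnel through which the new chain leaves the ribosome, was at 10.67, 10.74 and 10.67 untreated, 9.48, 9.36 and 9.12 with LPS and 8.94, 9.11 and 9.48 with PBD150 plus LPS, an LPS difference of -1.37 ± 0.20 (adjusted p = 0.00165). RPL4, which reaches into the tunnel, was at 15.99, 15.98 and 15.99 untreated and 15.08, 15.00 and 14.52 with LPS, a difference of -1.12 (adjusted p = 0.00495). Its untreated signal stood within 1% of the array maximum on 6 of 9 arrays, and a second probe gave -1.43. RPL35, a neighbour of RPL23A at the exit, fell by 0.88 (adjusted p = 0.0384), a call lost on the deposited values (-0.52, adjusted p = 0.264). RPL26, on the other side of the exit, had a difference of -1.01 that did not pass (adjusted p = 0.138).

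RPL10, which joins the large subunit late in its assembly, was at 11.12, 11.26 and 11.22 untreated and 9.84, 10.22 and 10.06 with LPS, a difference of -1.16 (adjusted p = 0.00438). A dimmer RPL10 probe went the other way, by 0.38 (adjusted p = 0.408). RPL27A fell by 0.97 (adjusted p = 0.00911), but did not pass on the deposited values (-0.51, adjusted p = 0.208) nor with its dimmest probe or the mean of its probes. RPL13A, the GAIT protein, was at 14.65, 14.62 and 14.63 untreated, 13.64, 14.13 and 13.93 with LPS, and 14.11, 13.85 and 13.90 with PBD150 plus LPS. It fell by 0.74 ± 0.19 (adjusted p = 0.0232), a 1.67-fold lower signal with no overlap, and the call was lost on the deposited scale and under median centring.

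In the small subunit RPS14, whose loss of 1 copy underlies the anaemia of 5q deletion, showed the largest fall. Its levels were 10.58, 10.75 and 10.96 untreated, 9.69, 8.84 and 9.24 with LPS, and 9.05, 9.14 and 9.52 with PBD150 plus LPS, an LPS difference of -1.51 ± 0.26 (adjusted p = 0.0036). RPS13 fell by 0.93 (adjusted p = 0.00979), RPS24, a gene of Diamond-Blackfan anaemia, by 0.89 (adjusted p = 0.0288), RPS16 by 0.83 (adjusted p = 0.0135) and RPS15A by 0.66 (adjusted p = 0.0341). On the deposited values these 4 calls were lost, at -0.47, -0.42, -0.53 and -0.32 in that order, and of the small subunit only RPS14 kept its call (-1.20, adjusted p = 0.0254). RPS25, known for its use by viral internal ribosome entry sites, differed by -0.47 (adjusted p = 0.0582) and RPS4X by -0.34 (adjusted p = 0.192), both short of the threshold. All 7 small subunit genes had every LPS culture below every untreated one.

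Paralogue forms did not move as a group. Without probe sequences, whether a member's probe also reads a near-identical copy, such as a paralogue or pseudogene, could not be checked. RPL7L1, a large subunit assembly factor related to RPL7, was at 13.32, 13.48 and 13.37 untreated, 12.24, 11.53 and 11.68 with LPS, and 10.72, 11.44 and 11.81 with PBD150 plus LPS, an LPS difference of -1.57 ± 0.31 (adjusted p = 0.00667). A second probe gave -1.77, and a further one was above the noise limit on only 4 of 9 LPS arrays. RPL39L, a copy of the tunnel protein RPL39 known from testis, was at 10.12, 10.06 and 10.02 untreated and 8.25, 8.72 and 8.88 with LPS, a difference of -1.45 ± 0.20 (adjusted p = 0.00131). These were the 2 of 7 paralogue forms that fell.

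RPL22 and RPL22L1 differed in direction, although RPL22L1 passed the threshold in only 1 comparison. RPL22 is known in mouse cells to hold down the mRNA of its paralogue RPL22L1, and either protein can sit in the ribosome. RPL22 was at 10.97, 10.96 and 10.87 untreated, 10.25, 9.94 and 9.72 with LPS, and 9.71, 10.03 and 10.17 with PBD150 plus LPS. It fell by 0.96 ± 0.21 with LPS (adjusted p = 0.0111) and its second probe by 1.85 (adjusted p = 0.00635). RPL22L1 was at 7.29, 7.08 and 7.19 untreated, 7.98, 7.83 and 8.16 with LPS, and 8.25, 8.71 and 7.56 with PBD150 plus LPS. Every treated culture was above every untreated one. The difference of 0.81 ± 0.28 with LPS did not pass (adjusted p = 0.0775), and that of 0.99 ± 0.28 with PBD150 plus LPS did (adjusted p = 0.0336), though not without any 1 of the untreated cultures or of the first and second with PBD150. The LPS value passed on the deposited scale, at 1.17 (adjusted p = 0.0158), and RPL22's call was lost there.

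RPS27L, a paralogue of RPS27 and a known target of p53, was at 12.21, 12.36 and 12.47 untreated, 12.30, 12.81 and 12.94 with LPS, and 12.91, 12.69 and 13.00 with PBD150 plus LPS. All 3 cultures with PBD150 plus LPS were above the untreated ones, but neither difference passed: 0.33 ± 0.22 with LPS (adjusted p = 0.325) and 0.52 ± 0.22 with PBD150 plus LPS (adjusted p = 0.115). CDKN1A, another p53 target, rose by 5.06 with LPS (adjusted p = 3.46e-05) and MDM2, which binds free ribosomal proteins, differed by 0.40 (adjusted p = 0.204). RPL10L, a testis copy of RPL10, had a difference of -0.62 (adjusted p = 0.221), and RPL3L, the muscle form of RPL3, of 0.50 (adjusted p = 0.50). RPS26L1 differed by 0.19 (adjusted p = 0.631).

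**Figure D2:**
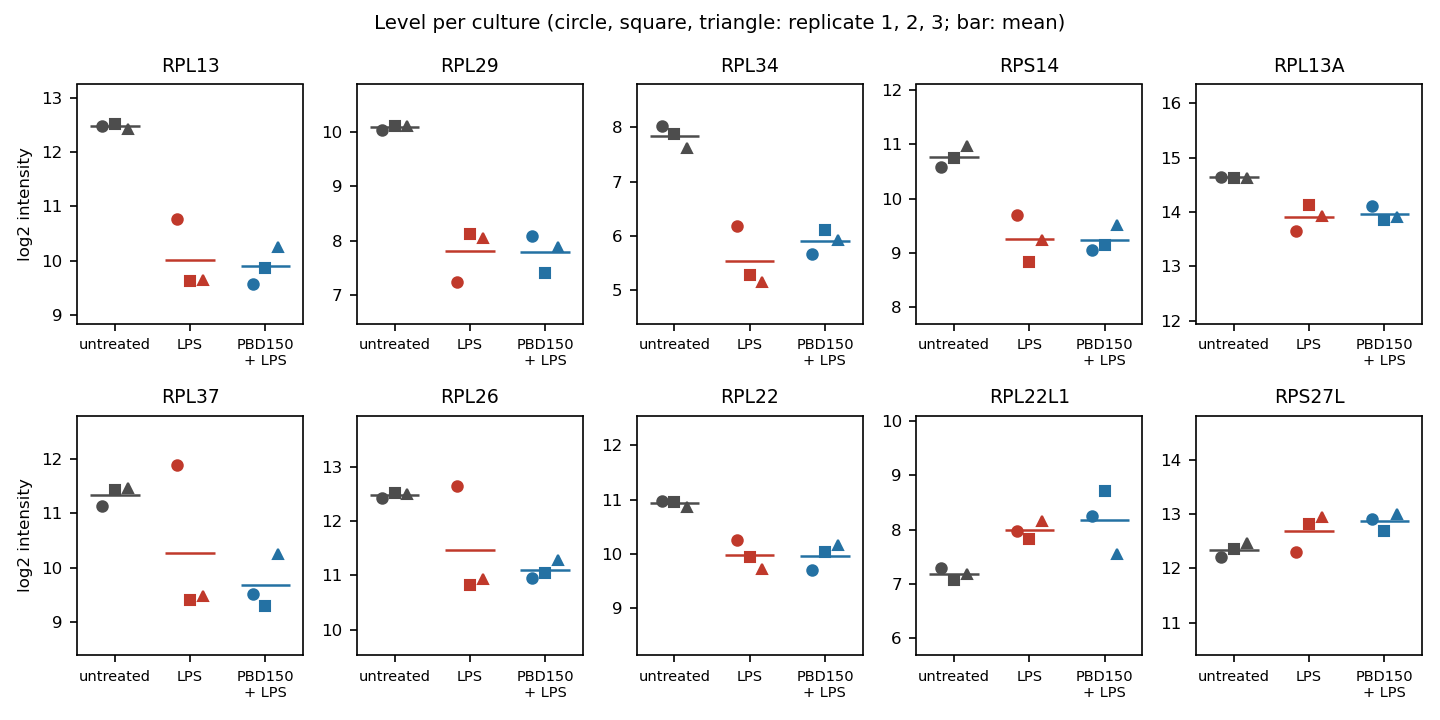
Log2 intensity of 10 ribosomal protein genes in each of 9 cultures, with the mean of each group as a bar and every panel spanning the same 4.4 log2 units. RPL13, RPL29, RPL34, RPS14, RPL13A and RPL22 are lower in every treated culture, RPL22L1 is higher, and LPS replicate 1 lies above all untreated cultures for RPL37 and RPL26.

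The LPS cultures were not alike for these genes. LPS replicate 1 was the highest of the 3 LPS cultures in 19 of the 26 core members. In the other treated group, PBD150 plus LPS replicate 3 was the highest in 16 of 26. LPS replicate 1 lay below all untreated values in 21 of 26, while each of the other 5 treated cultures did so in 25 of 26. The share of all genes was not counted per culture. The median core difference from the untreated mean was -0.66 in LPS replicate 1, -1.05 in replicate 2 and -1.14 in replicate 3, and -1.18, -0.94 and -0.81 in the cultures with PBD150 plus LPS.

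RPL37 showed this most clearly, at 11.14, 11.43 and 11.46 untreated and 11.90, 9.41 and 9.48 with LPS. LPS replicate 1 was above every untreated culture and the other LPS cultures were about 2 log2 units below, so the difference of -1.07 did not pass (adjusted p = 0.265). A second RPL37 probe had the same order, with 9.08, 9.19 and 9.12 untreated and 9.45, 7.09 and 7.82 with LPS. RPL26 was at 12.42, 12.52 and 12.50 untreated and 12.64, 10.83 and 10.94 with LPS. RPL36A was at 13.64, 13.75 and 13.74 untreated and 13.84, 12.30 and 12.47 with LPS, a difference of -0.84 (adjusted p = 0.177). These 3 were the core genes with LPS replicate 1 above all untreated cultures. RPL15 (-1.24, adjusted p = 0.067), RPL30 (-0.55, adjusted p = 0.133) and RPL37A (-0.48, adjusted p = 0.20) also missed the threshold with that culture at the top of its group. A dimmer RPL37A probe did fall, from 5.72, 5.82 and 5.81 untreated to 3.56, 2.78 and 2.57 with LPS. Its difference was -2.81 (adjusted p = 0.002), and it was above the noise limit on 1 of 9 LPS arrays.

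The opposite held for RPL8, RPL10, RPL13A, RPL29 and RPS15A, in which LPS replicate 1 was the lowest of its group. RPL8 was at 15.99 or above in every untreated culture, at the top of the scale on all 9 arrays, and at 15.00, 15.88 and 15.91 with LPS. It was also at the top of the scale on 6 of 9 LPS arrays, so both levels are bounds and no fold is given; the fitted difference did not pass (adjusted p = 0.31). Without LPS replicate 1, 24 members fell: RPL10L, RPL15, RPL26, RPL30, RPL36A, RPL37 and RPL37A were added and RPS15A was lost, and the median of the 34 was -1.08. The share of all genes that fell in that fit is not given. That culture was set apart because it was high in most of these genes, so larger falls without it follow from the choice. Core members had a median SD between cultures of 0.0654 in the untreated group, 0.404 after LPS alone and 0.243 after PBD150 and LPS, against 0.153, 0.348 and 0.333 over all genes.

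**Figure D3:**
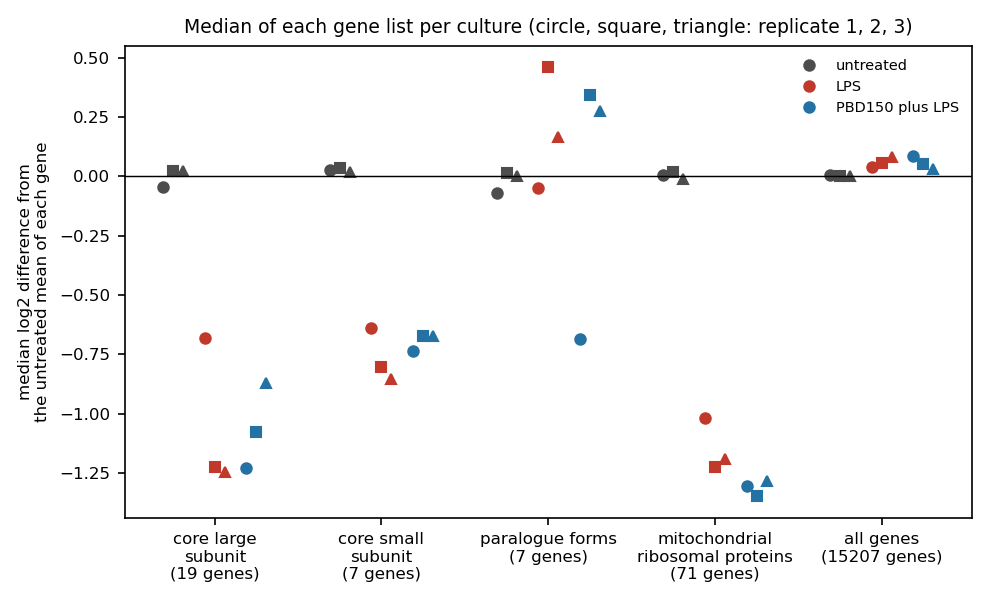
Median difference from each gene's untreated mean, per culture, for core large and small subunit genes, paralogue forms, mitochondrial ribosomal proteins and all genes. All 6 treated cultures lie below the untreated ones for both core subunits (-0.64 to -1.24) and for mitochondrial ribosomal proteins, while all genes stay near 0 and the paralogue forms spread to both sides.

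In cells given PBD150 before LPS these genes also stood low. Against untreated cells 19 of 34 fell and 1 rose, with 17.9% of all genes lower and 15.3% higher, and the median of the 34 was -0.96 against 0.06 for all genes. Without untreated replicate 1, or without replicate 2, 12 fell. Of the 26 core members 17 fell and 26 were below 0. In 25 of them all 3 cultures lay below the untreated ones, and in 28 of the 34 genes, against 27.1% of all genes. This comparison shares its untreated arrays with LPS against untreated, so the 17 genes lower in both, of 18 and of 19, are not independent evidence. RPL14 fell by 2.68, RPL13 by 2.58, RPL29 by 2.30, RPL7L1 by 2.07, RPL34 by 1.94, RPL39L by 1.54, RPS14 by 1.53 and RPL23A by 1.51. RPL15 (-1.41, adjusted p = 0.0376) and RPL26 (-1.38, adjusted p = 0.0467) passed here, calls that were lost when any untreated culture, or the first or second with PBD150, was left out, and for RPL26 also the third. Their direct differences between PBD150 plus LPS and LPS were -0.17 and -0.38, neither past the threshold. RPS15A had -0.51 (adjusted p = 0.0742). RPS26L1 differed by 0.68 (adjusted p = 0.0724).

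PBD150 made no detectable difference to these genes on top of LPS. In PBD150 plus LPS against LPS 0 members rose and 0 fell by limma, as 0% of all genes rose and 0% fell. With an unadjusted p under 0.05 there were 0 and 0 of the 34, where 249 of all 15207 genes were higher and 429 lower. No member had all 3 cultures of one group below, or above, those of the other, which 4.47% and 3.27% of all genes did. The median difference of the 34 was -0.02, the range -0.58 to 0.49 and the smallest adjusted p 0.906.

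The largest rises short of the threshold were RPS26L1 (0.49), RPL34 (0.36) and RPL8 (0.27). RPL8 stood at the top of the scale on 6 of 9 arrays in both groups, so its value compares bounds and is not a measured rise. The largest falls short of it, by the moderated statistic, were RPL7L1 (-0.49), RPL37 (-0.58) and RPL4 (-0.19). RPL13A differed by 0.06, with PBD150 plus LPS cultures at 14.11, 13.85 and 13.90 inside the range of the LPS cultures. For 19 of the 26 core members, and 23 of all 34, the 95% interval of the difference lay within a 2-fold change either way, and for the remaining genes a larger difference was within the interval. The interval of a core member reached a median of 0.55 to either side of its difference. These intervals rest on a variance pooled with the untreated cultures, which are not part of this comparison. The median SD of core members between cultures was 0.0654 in untreated cells, against 0.404 after LPS alone and 0.243 after PBD150 and LPS. The intervals may therefore be too narrow here, and the counts within a 2-fold change too high. Intervals from the compared groups alone are not given.

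The difference was also set against the brightness of the probe. Among the 10 core genes with an untreated level of 14 or more, 5 fell and the median difference was -0.64. Among the 8 between 11 and 14, 4 fell with a median of -1.04, and among the 8 under 11, 7 fell with a median of -1.44. The limits of the scale touch the brightest and the dimmest of these sets. RPL8 and RPL4 in the first were at the top of the scale on 9 and 6 of 9 untreated arrays. RPL28, at the noise limit, was the gene under 11 that did not fall. Of 15 further probes, 9 from 9 genes were above the noise limit on all arrays, 8 of these were below 0 with LPS and 5 were past the threshold: RPL4, RPL7L1, RPL22, RPL26 (-1.50) and RPS13 (-0.81). Probes that fell to the noise limit with LPS, such as the dimmer one of RPL37A, are outside that tally. The part of probe brightness in the differences was not tested.

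**Figure D4:**
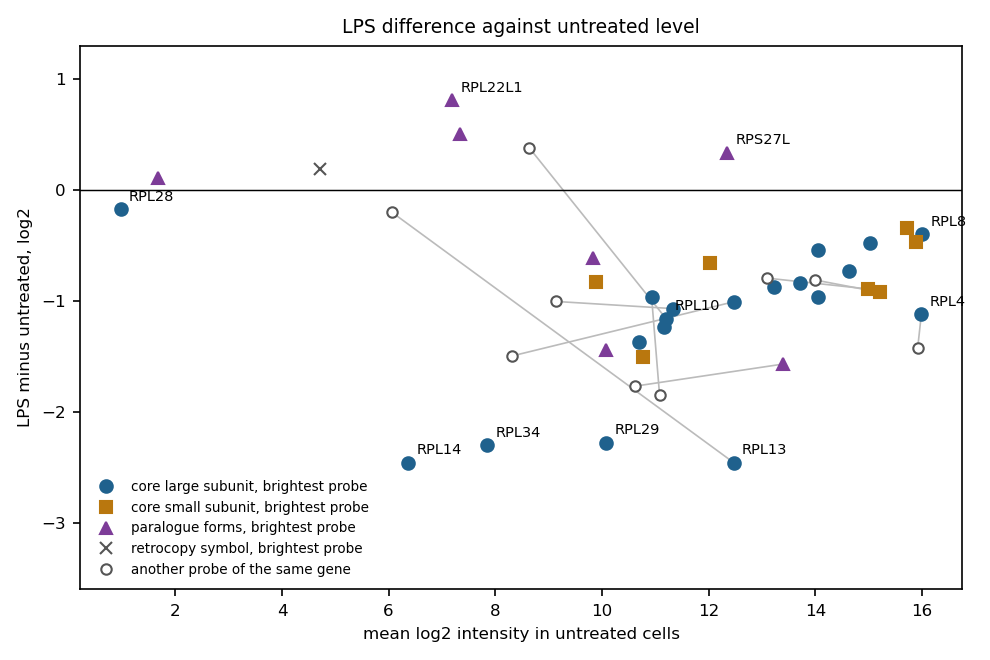
LPS difference against mean untreated log2 intensity, with 1 filled symbol per gene by class and an open circle, joined by a line, for each further probe above the noise limit on all arrays. Core genes at a level of 14 or more lie between -1.12 and -0.34, and the further probes of RPL10 and RPL13 lie far from the brightest probe of those genes.

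The 19 genes with a TOP start included 13 of the 15 that fell with LPS among the 26 with a RefSeq start, with a median of -0.93. Over all genes 15.4% fell. Of the 7 genes without a TOP start, RPL4 and RPL7L1 fell and the median was -0.62. RPL10L, RPL15 (-1.24), RPS27L, RPS4X and RPS4Y2 did not pass the threshold. RPS4Y2 among the 7 and RPL28 among the 19 have no usable level. Of these 7, 4 are paralogue forms. Among core members alone 13 of the 18 with a TOP start fell, and 1 of the 3 without. The order of the medians was the reverse of that over the 26 genes, at -0.94 for the 18 and -1.12 for the 3. The latter is the value of RPL4 alone. The sequence CCGGAAG, the core bound by GABP, was searched on both strands of the promoter windows and was found in 11 of 26 genes (42.3%), against 12.2% of all genes and 10.3% of promoters. The E-box CACGTG, bound by MYC, was in 2 of 26 genes (7.69%), RPL13A and RPL7L1, against 8.77% of genes and 7.26% of promoters. AAGATGG, a YY1 core, was in RPL13A and RPL22L1 (7.69%), against 7.11% and 5.84%. CCGGAAG and AAGATGG can overlap in the letters AAG and were counted separately, all 3 motifs on both strands, and a match describes letters only. A gene counted if any of its windows matched, and the members' share per promoter is not given.

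Other genes of translation were low with LPS as well. Of 13 translation factors and related genes with a TOP tract, 9 were measured, and 6 fell and 0 rose. HNRNPA1, an RNA-binding protein, fell by 2.51 (adjusted p = 7.66e-05), EIF3E by 2.06 (adjusted p = 0.00141), the elongation factor EEF2 by 1.22 (adjusted p = 0.00425) and the poly(A)-binding protein PABPC1 by 1.17 (adjusted p = 0.0111). With PBD150 plus LPS 6 of the 9 were again lower than untreated. Of 71 mitochondrial ribosomal proteins, the separate set that translates mitochondrial mRNAs, 50 fell and 2 rose with LPS with a median of -1.29, and 57 fell and 2 rose with PBD150 plus LPS with a median of -1.27. For both lists 0 genes differed between PBD150 plus LPS and LPS, with medians of -0.01 and -0.15.

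Of 12 regulators of ribosomal protein synthesis 11 were measured, 3 rose and 5 fell with LPS. DDIT4, an inhibitor of mTOR, was at 10.38, 10.31 and 10.19 untreated and 13.05, 13.68 and 13.28 with LPS, and rose by 3.04 (adjusted p = 4.54e-05). MYC was at 6.80, 7.66 and 7.59 untreated and 4.24, 3.58 and 2.94 with LPS, where it was above the noise limit on 3 of 9 arrays, and fell by 3.76 (adjusted p = 0.000591). LARP1 fell by 2.97 (adjusted p = 0.000455) and EIF4EBP1, the mTOR target that blocks cap-dependent initiation, by 1.55 (adjusted p = 0.00189). None of the 11 differed past the threshold between PBD150 plus LPS and LPS by limma. At an unadjusted p under 0.05, 1 was higher and 1 was lower.

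The fall was relative to the other genes on the array. On the values as deposited, where the median of all genes was 0.38 higher with LPS, 9 members fell, RPL22L1 rose and the median of the 34 was -0.49, which is 0.87 below the median of all genes. Under quantile normalisation that distance was 0.93. All 26 core members were below the median of all genes under the 4 scalings tried, but RPS4X was above 0 on the deposited values, at 0.16.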

How the data were processed

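The deposited table holds background-subtracted linear intensity values, 1 per probe and array, per the file's values below 0; the scanner and the scaling method were not stated in the labels or headers. RNA of 2.5 µg per sample was amplified and labelled with Cy5, per the labels' protocols. Intensities were floored at 1, put on the log2 scale and quantile normalised over 27 arrays, and the 3 arrays of a culture were averaged. A group-means model over 9 cultures was fitted in limma 3.58.1 (R 4.3.3) with moderated variances and two-sided tests. P-values were adjusted by the Benjamini-Hochberg method across all 30968 probes, with a threshold of 0.05. Of the probes 17397 had 1 symbol and 13571 were unnamed here; 2645 symbols were updated through RefSeq and 82 were unmatched. A level at 99% or more of an array's maximum was taken as the top of the scale. The fit was also run on simulated data with the same spread in every group. The spreads of these genes were unequal between groups, so that run does not test this setting. The number of cultures, 3 per group, limits the precision.

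The members and gene lists were chosen with earlier results of these data known. Named with values were, in each comparison, the 8 largest rises and falls past the threshold (the 3 largest moderated statistics where fewer than 5 passed), paralogue forms with their partners, RPL13A, and up to 4 translation factors and 4 regulators with the smallest p; further members were named after their values were seen. Alternatives covered scaling, low values, probe choice, technical arrays, array weights, a replicate block, the groups in the fit and leaving out each culture.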

Additional observations from a re-analysis of the deposited data

How the results depend on the processing

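For LPS against untreated, 9 members fell, 1 rose and the median was -0.49 on the values as deposited, and 1 rose with log2 of the value plus 16, with the culture as a random block, with array weights, or with only the groups compared in the fit. Leaving out 1 culture gave 12 to 24 lower, 0 to 1 higher and medians of -1.08 to -0.76. For PBD150 plus LPS against untreated, 12 fell with a median of -0.73 as deposited, and the median was -0.77 with the dimmest probe of each gene. There 0 rose with median centring, with the replicate block or with only the groups compared, and 2 rose with the random block or array weights. Leaving out 1 culture gave 12 to 24 lower, 0 to 2 higher and medians of -1.02 to -0.84; 12 fell without untreated replicate 1 or 2. The dimmest RPL10 probe reversed its difference, to 0.38 with LPS and 0.079 with PBD150 plus LPS. In PBD150 plus LPS against LPS every setting gave 0 higher and 0 lower. The random block, which takes the 3 arrays of a culture as correlated (0.239), gave 27 lower in both comparisons with untreated cells, and the cause of these shifts was not tested. The counts under these settings, and those without 1 culture above, are not set beside the share of all genes.

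Replicate numbers did not pair the cultures, since deviations of same-numbered cultures correlated by -0.22 to 0.04. With the replicate block 13 members fell in each comparison with untreated cells; RPL13A, RPL14, RPL35 and RPS24 lost their call in both, RPS15A in the LPS comparison, and RPL15, RPL22L1 and RPL26 in the other. Having 3 cultures a group and signals at the noise limit or the top of the scale (RPL14, RPL28, RPS4Y2, RPL4, RPL8) limit what could be seen.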

Other observations

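LPS replicate 1, the culture in which core ribosomal proteins were least reduced, was also compared for other translation genes. The median difference from untreated over the 9 TOP translation factors was -1.28 in that culture, against -0.88 in LPS replicates 2 and 3. The elongation factor gene EEF1B2 was at 10.06 there and at 11.07 in both other LPS cultures, and EEF1D at 9.95 against 11.36 and 10.85. EIF3E ran the other way, at 13.31 against 12.75 and 12.31, as did EEF2, at 13.92 against 13.89 and 13.49. Over the 71 mitochondrial ribosomal proteins the medians were -1.02, -1.23 and -1.19, with replicate 1 the least reduced, as in the core genes. These genes were picked out after their values were seen, and the difference between cultures has no test.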
